A study of Homo sapiens with 6 samples.

Results

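The 9 genes described here encode the receptors, initiator caspases and inhibitors at the top of the extrinsic apoptosis pathway. They are the death receptors FAS, TNFRSF10A and TNFRSF10B, the initiator caspases CASP8 and CASP10, the caspase-8 inhibitor CFLAR, and the inhibitor of apoptosis (IAP) genes XIAP, BIRC2 and BIRC3. They were taken by gene name from the 58735 genes of the count table, and all 9 were found and passed the filter on low counts. The study sequenced RNA of MDA-MB-231, a mesenchymal line of triple-negative breast cancer, in 6 libraries. Of these, 3 came from DNAJC12v-transfected cells (genotype label DNAJC12 overexpression) and 3 from cells that received an empty vector (genotype label control). DNAJC12 encodes a J-domain co-chaperone, and the comparison asks which transcripts its overexpression alters. No label speaks of separate cultures within a group, so p-values reflect only how far these libraries differ, and that spread may be technical. Nor do the labels say whether cells were clones or pools.

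Death receptors are membrane proteins with an intracellular death domain. When a ligand clusters them, the adaptor FADD joins the receptor and gathers procaspase-8 and procaspase-10, which then cut and activate one another. CFLAR, which encodes c-FLIP, resembles caspase-8 but has no protease activity and holds it back in this complex. Further down, XIAP binds and blocks active caspases, whereas the ubiquitin ligases cIAP1 (BIRC2) and cIAP2 (BIRC3) mark proteins of the tumour necrosis factor (TNF) receptor complex and so favour survival signalling.

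Several of the genes are neighbours. In GRCh38, CFLAR (ENSG00000003402), CASP10 (ENSG00000003400) and CASP8 (ENSG00000064012) follow each other on the plus strand of chromosome 2, at 201116104 to 201176687, 201182881 to 201229406 and 201233443 to 201287711. BIRC3 (ENSG00000023445, 102317450 to 102339403) and BIRC2 (ENSG00000110330, 102347211 to 102378670) lie 7.81 kb apart on the plus strand of chromosome 11. FAS (ENSG00000026103) lies on chromosome 10 at 88990582 to 89015785, plus strand, and XIAP (ENSG00000101966) on chromosome X at 123859724 to 123913979, plus strand. TNFRSF10B (ENSG00000120889) and TNFRSF10A (ENSG00000104689) share a cluster, with the decoy receptor genes TNFRSF10D and TNFRSF10C between them.

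The promoters of BIRC3, BIRC2 and CFLAR are shown because the ratios of BIRC3 to BIRC2 and of CFLAR to CASP8 are compared below. BIRC3 and CFLAR are also textbook targets of the transcription factor NF-kB. Each sequence is the RefSeq window from 250 bases before to 50 after a start site (GRCh38.p14, plus strand), at the annotated start nearest to the deposited start of the gene. Capitals mark matches to the NF-kB consensus or to the cyclic AMP response element (CRE) palindrome TGACGTCA.
BIRC3, chr11:102317234-102317533: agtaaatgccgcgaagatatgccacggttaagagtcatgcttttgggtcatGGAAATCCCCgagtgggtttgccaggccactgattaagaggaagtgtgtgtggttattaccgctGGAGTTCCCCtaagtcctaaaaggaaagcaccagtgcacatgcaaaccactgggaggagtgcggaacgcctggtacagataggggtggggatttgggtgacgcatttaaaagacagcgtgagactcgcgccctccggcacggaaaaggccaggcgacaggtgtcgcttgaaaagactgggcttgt
BIRC2, chr11:102346964-102347263: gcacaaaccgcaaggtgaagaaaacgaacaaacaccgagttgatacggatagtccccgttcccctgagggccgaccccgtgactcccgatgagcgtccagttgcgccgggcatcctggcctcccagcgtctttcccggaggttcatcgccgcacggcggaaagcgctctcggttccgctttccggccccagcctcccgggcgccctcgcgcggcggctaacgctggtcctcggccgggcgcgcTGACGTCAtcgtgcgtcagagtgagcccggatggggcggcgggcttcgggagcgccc
CFLAR, chr2:201118466-201118765: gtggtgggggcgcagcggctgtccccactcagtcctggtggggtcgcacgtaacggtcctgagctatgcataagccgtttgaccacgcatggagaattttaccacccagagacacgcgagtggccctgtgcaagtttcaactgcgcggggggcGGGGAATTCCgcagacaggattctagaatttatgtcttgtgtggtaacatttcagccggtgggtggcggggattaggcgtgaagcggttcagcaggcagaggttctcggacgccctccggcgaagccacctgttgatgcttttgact
BIRC3 held 2 matches to the NF-kB consensus and CFLAR 1, on either strand, and BIRC2 held 1 CRE palindrome. Of 35116 promoter windows in the same RefSeq table, 11.3% held the NF-kB consensus and 1.85% the CRE palindrome. The core TGATGNAA of the element bound by ATF4 with C/EBP partners, present in 3.62% of the windows, was in none of these 3 windows, nor in those of FAS, CASP8 and XIAP, which held no match to the other motifs either. TNFRSF10A, TNFRSF10B and CASP10 had no window, so their promoters were not searched. The start site of the CFLAR window lies 2612 bases downstream of the deposited gene start. The BIRC2 window was 68.7% G and C, that of BIRC3 53.3% and that of CFLAR 58.7%, beside a median of 58.7% over all windows. A match is only a run of letters, and binding was not measured.

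The libraries held 17967283 to 18887497 counts. The transfected gene itself, DNAJC12, was counted 522, 523 and 492 times in the overexpression libraries and 1, 0 and 0 times in the empty vector libraries, which fits the labels. Markers of the line (VIM, CD44, AXL and EGFR) summed to 3395 to 3460 CPM (counts scaled to a common library size) with DNAJC12 and to 2961 to 3106 CPM with the empty vector. Sums over markers were scaled by each library's total count and the CPM of single genes by TMM library sizes. Sums and single genes are therefore on different scales. Among markers that should be low or absent, PGR and ESR1 were too scarce to be tested. CDH1 averaged 4.02 CPM with DNAJC12 and 3.96 CPM with the empty vector. EPCAM averaged 8.62 CPM with DNAJC12 and 5.24 CPM with the empty vector, while ERBB2 averaged 85.3 CPM with DNAJC12 and 106 CPM with the empty vector. Summed over 8 markers of blood, endothelial and liver cells, levels ran from 11.8 to 14.7 CPM with DNAJC12 and from 23.7 to 29.5 CPM with the empty vector. PECAM1 and CD14 were the genes of that list that passed the filter on low counts, and they went opposite ways. PECAM1, an endothelial marker, averaged 4.58 CPM with DNAJC12 and 18.3 CPM with the empty vector and fell by the test (edgeR adjusted p = 0.0125). CD14 averaged 8.95 CPM with DNAJC12 and 7.16 CPM with the empty vector and did not pass (0.746). The endothelial genes VWF and CDH5 had 0 to 4 counts in the libraries of both groups. Of the 8, 2 were at 0 in every overexpression library and 3 in every empty vector library, and the part of such cells in the results was not tested. In bulk RNA, fewer cells of a type and less RNA per cell cannot be told apart. Weighted by counts, transcripts had a mean GC content of 50.8, 53.4 and 51.7% with DNAJC12 and of 51.4, 52.8 and 52.3% with the empty vector. Overexpression replicate 2 had the highest mean.

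None of the 9 genes passed the test. Per length, TNFRSF10B was the most abundant and FAS the least. XIAP had the largest fold change in the test on all 6 libraries, to 2.05 times the empty vector level, with a 95% interval of 0.983 to 4.27. BIRC3 had the largest in 3 of the 17 alternative fits, among them that after a GC correction and that without overexpression replicate 1. CASP10 (0.691 times) and CFLAR (1.23 times) were the genes whose 3 overexpression libraries all lay on one side of the empty vector libraries. In the edgeR quasi-likelihood test, 181 of 14520 genes had a Benjamini-Hochberg adjusted p under 0.05, which is 1.25%, and 0 of the 9 did. At an unadjusted p under 0.05 the edgeR count was also 0 of the 9, beside 14.1% of all genes. The DESeq2 Wald test, which called 3.89% of all genes, and limma on log2(FPKM + 1), which called 1.41%, called 0 of the 9 as well. The groups did not overlap for 2 of the 9 genes, beside 20.1% of all tested genes. The median log2 fold change of the 9 genes was -0.09, with 4 above 0 and 5 below, beside 0.05 over all tested genes. The median over all tested genes differed by GC content, as given below.

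**Figure D1:**
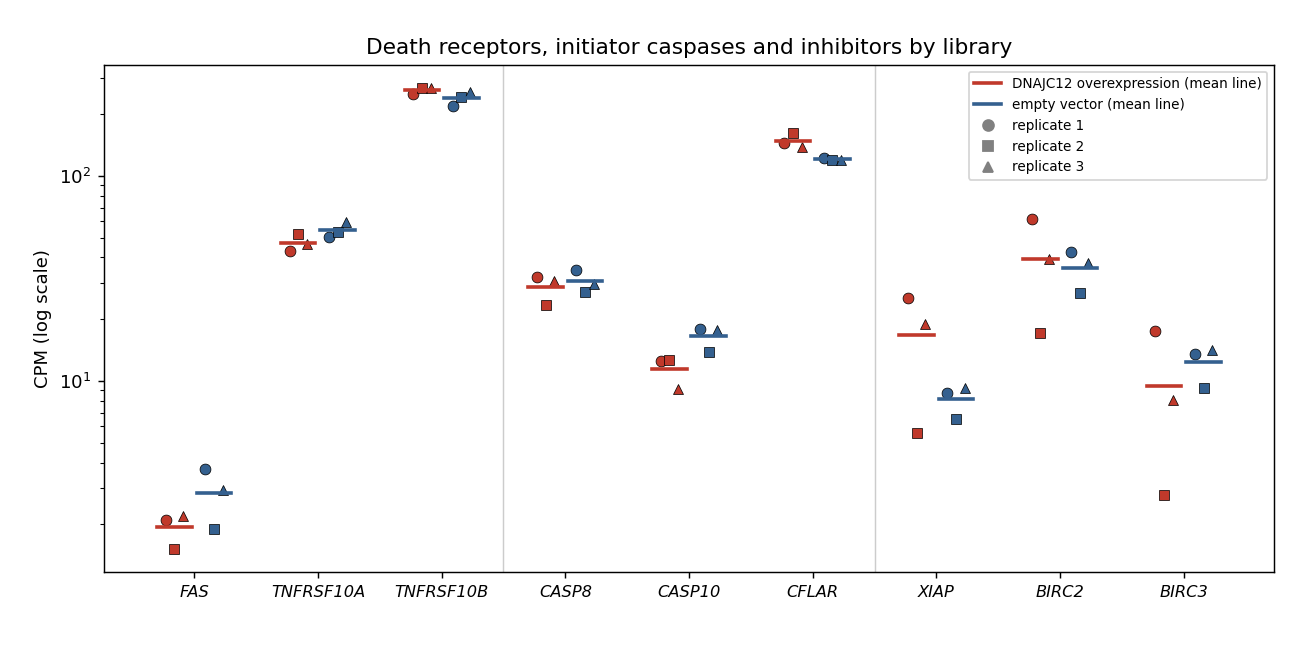
Level of each gene in CPM (log axis) in the 3 DNAJC12 overexpression libraries (red) and the 3 empty vector libraries (blue), with a marker shape per replicate number and a line at each group's mean. The groups overlap for 7 of the 9 genes, and overexpression replicate 2 lies far below the other libraries of its group for XIAP, BIRC2 and BIRC3.

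Among the receptors, TNFRSF10B, which encodes the TRAIL receptor DR5, was read at 251, 268 and 266 CPM with DNAJC12 and at 220, 242 and 255 CPM with the empty vector. Its overexpression libraries were above 2 of the empty vector libraries, but replicate 1 (251) fell below empty vector replicate 3 (255). The log2 fold change was 0.13 ± 0.18 SE, with a 95% interval of -0.28 to 0.54 and an adjusted p of 0.804 by the edgeR quasi-likelihood test. DR5 transcription is known to be raised by the stress factor DDIT3 (CHOP) in human cells. DDIT3 itself averaged 34.4 ± 5.09 CPM with DNAJC12 and 19.6 ± 3.11 CPM with the empty vector (SD, n = 3 each), a log2 fold change of 0.81 that did not pass (adjusted p = 0.149, edgeR). DDIT3 did pass after the GC correction described for XIAP (edgeR adjusted p = 0.0169) and without overexpression replicate 2 (0.0059). Those fits called 17.5% and 22.5% of all genes. This gene was chosen for its known link to DR5 and after its values were seen. RHOBTB2, which overlaps TNFRSF10B on the other strand, had 181 to 410 counts, against 4096 to 5100 for TNFRSF10B.

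TNFRSF10A, the other TRAIL receptor with a death domain (DR4), was at 43.1, 52.2 and 46.4 CPM with DNAJC12 and at 50.2, 53.0 and 59.3 CPM with the empty vector. Overexpression replicates 1 and 3 were below every empty vector library, and replicate 2 was among them. Its log2 fold change was -0.20 ± 0.20 SE (adjusted p = 0.710, edgeR), with an interval of -0.64 to 0.24. FAS, the receptor of FAS ligand, was the scarcest of the 9, counted 42, 24 and 42 times with DNAJC12 and 69, 34 and 55 times with the empty vector. That is 2.10, 1.52 and 2.19 CPM with DNAJC12 and 3.70, 1.89 and 2.93 CPM with the empty vector, a log2 fold change of -0.55 ± 0.34 SE (adjusted p = 0.523, edgeR). At this depth counting alone is wide: the 95% Poisson interval of 24 counts is 15.4 to 35.7. Also, ACTA2 overlaps FAS on the other strand with 12 to 41 counts, and the strand setting of the counting is not given in the sources used here, so the FAS values are uncertain.

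CASP8, the main initiator caspase of this pathway, was at 32.3, 23.5 and 30.7 CPM with DNAJC12 and at 34.8, 27.2 and 29.8 CPM with the empty vector. The groups overlapped, and the lowest library of each group was the one numbered 2. The log2 fold change was -0.09 ± 0.23 SE, with an interval of -0.59 to 0.42 (adjusted p = 0.906, edgeR). Leaving out overexpression replicate 2 gave 0.04, and leaving out empty vector replicate 1 gave 0.0088. CASP10, its close relative next to it in the genome, was at 12.5, 12.6 and 9.14 CPM with DNAJC12 and at 18.0, 13.8 and 17.7 CPM with the empty vector. All 3 overexpression libraries lay below all 3 empty vector libraries, a pattern found in 10.8% of tested genes. The log2 fold change was -0.53 ± 0.26 SE, with an interval of -1.11 to 0.04 and an adjusted p of 0.399 by edgeR. Without both libraries numbered 2, CASP10 passed (log2 fold change -0.73, edgeR adjusted p = 0.0365), in a fit that called 18.7% of all genes.

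CFLAR, the inhibitor that joins caspase-8 at the receptor, was at 144, 162 and 138 CPM with DNAJC12 and at 122, 120 and 120 CPM with the empty vector. Every overexpression library was above every empty vector library, as in 9.26% of tested genes, and the empty vector libraries hardly differed among themselves. The log2 fold change was 0.29 ± 0.19 SE, with an interval of -0.12 to 0.71 and an adjusted p of 0.526 (edgeR). The overlapping antisense gene CFLAR-AS1 had 2 to 15 counts, against 2157 to 2882 for CFLAR.

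XIAP, the IAP that blocks caspases by direct binding, was at 25.5, 5.56 and 19.0 CPM with DNAJC12 and at 8.69, 6.51 and 9.27 CPM with the empty vector. Overexpression replicates 1 and 3 were above every empty vector library, and replicate 2 was below every one of them. On the log2 scale the fold change was 1.03 ± 0.47 SE, with an interval of -0.03 to 2.10 and an adjusted p of 0.369 (edgeR). Without overexpression replicate 2 it was 1.45 with an adjusted p of 0.00174, and without both libraries numbered 2 it was 1.30 with an adjusted p of 5.2e-05. The fit without overexpression replicate 2 called 22.5% of all genes, and the other 18.7%, by the edgeR test. After a correction for GC content, in a fit that called 17.5% of all genes, the log2 fold change was 0.75 and the edgeR adjusted p 0.0888. Without overexpression replicate 1, the highest library, it was 0.59 (adjusted p = 0.583, edgeR), in a fit that called 1.68% of all genes.

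BIRC2, which encodes cIAP1, was at 61.7, 17.1 and 39.3 CPM with DNAJC12 and at 42.7, 26.9 and 37.5 CPM with the empty vector. The highest and the lowest of the 6 libraries were both overexpression libraries, replicates 1 and 2. On the log2 scale the fold change was 0.14 ± 0.40 SE, with an interval of -0.77 to 1.05 (adjusted p = 0.913, edgeR), and -0.13 after the GC correction. Without overexpression replicate 1 it was -0.35, and without replicate 2 it was 0.50. BIRC3, which encodes cIAP2, was at 17.5, 2.78 and 8.10 CPM with DNAJC12 and at 13.5, 9.23 and 14.2 CPM with the empty vector. Its overexpression libraries covered a 6.29-fold range that enclosed all 3 empty vector libraries, which covered a 1.54-fold range. On the log2 scale the fold change was -0.38 ± 0.53 SE, with an interval of -1.57 to 0.82 (adjusted p = 0.807, edgeR), 0.06 without overexpression replicate 2 and -1.18 without replicate 1. After the GC correction it was -0.76 (adjusted p = 0.108, edgeR).

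**Figure D2:**
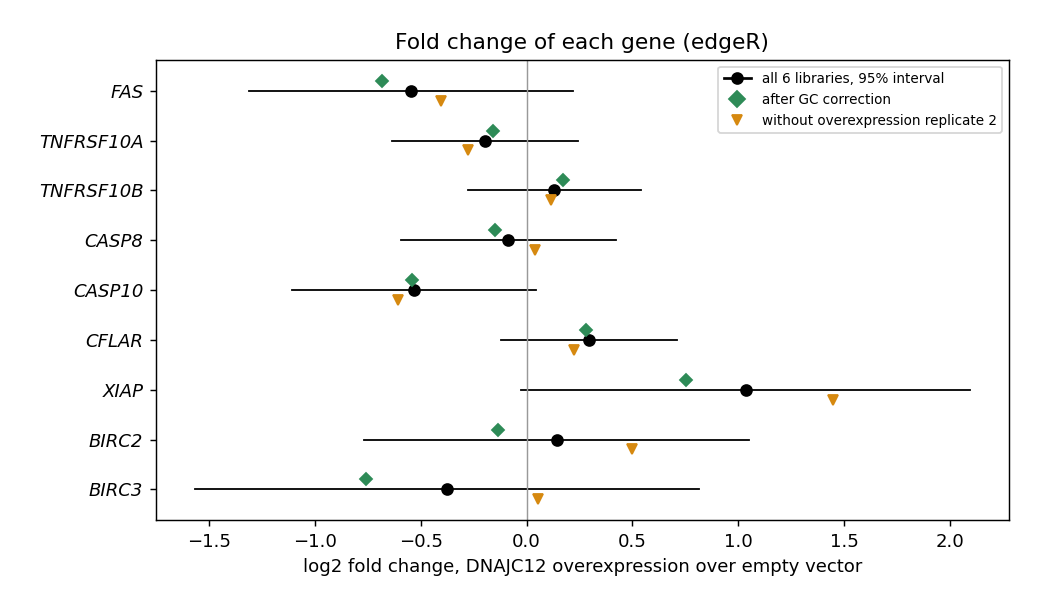
Log2 fold change of each gene, DNAJC12 overexpression over empty vector, from edgeR on all 6 libraries with its 95% interval (black), after GC correction (green diamonds) and without overexpression replicate 2 (orange triangles). All 9 intervals include 0, and the estimates move most for XIAP, BIRC2 and BIRC3.

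Over the 6 libraries, the 3 IAP genes had the highest fitted spread of the 9. The gene-wise biological coefficient of variation, the spread that edgeR fits beyond counting error, was 40.3% for XIAP, 35.1% for BIRC2 and 45.4% for BIRC3. Those values were above 95.1%, 87.7% and 98.1% of all tested genes, whose median was 25.5%. For TNFRSF10B (17.2%), CFLAR (17.5%) and TNFRSF10A (18.8%) they were above 0.503%, 1.07% and 5.53%. FAS, at 27.8%, was above 63.4% of tested genes. Within the empty vector group alone FAS had the widest range, 1.96-fold between its highest and lowest library, against 1.42-fold for XIAP, 1.59-fold for BIRC2 and 1.54-fold for BIRC3.

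For the IAP genes, overexpression replicate 2 lay far from the other libraries of its group. On the log2 CPM scale, replicate 2 differed from the mean of replicates 1 and 3 by -1.96 for XIAP, -1.52 for BIRC2 and -2.06 for BIRC3. In the empty vector group the same gaps were -0.46, -0.57 and -0.58. The transcripts of these genes are poor in G and C, at 39.0% for XIAP, 38.0% for BIRC2 and 34.8% for BIRC3. The tested genes were put into 5 bins of about equal size by GC content. In the lowest bin, of 2904 genes, which also holds FAS (39.1%), the median gap was -1.05 in the overexpression group and -0.40 in the empty vector group. FAS itself had a gap of -0.47 in the overexpression group and -0.77 in the empty vector group, unlike the IAP genes, whose overexpression gaps were the larger. In the highest bin the median gap was 0.73 in the overexpression group and 0.27 in the empty vector group. CASP8 (42.6%), CFLAR (44.1%) and CASP10 (46.1%) are in bin 2, with a median overexpression gap of -0.67, while their own gaps were -0.42, 0.20 and 0.23. TNFRSF10A (50.1%) and TNFRSF10B, of nearly equal GC content, are in bin 3, where the median gap was 0.03, and had gaps of 0.22 and 0.05. Overexpression replicate 2 was the lowest of the 6 libraries for 5 of the 9 genes, beside 30.3% of all tested genes. The median log2 fold change of tested genes also differed by bin, at 0.24 in the lowest bin and 0.10 in bin 2. It was 0.00075 in bin 3, -0.04 in bin 4 and -0.02 in bin 5. Of the 9 genes, 7 are in the lowest bin or in bin 2. The part of GC content in the spread and in the fold change of single genes was not tested.

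**Figure D3:**
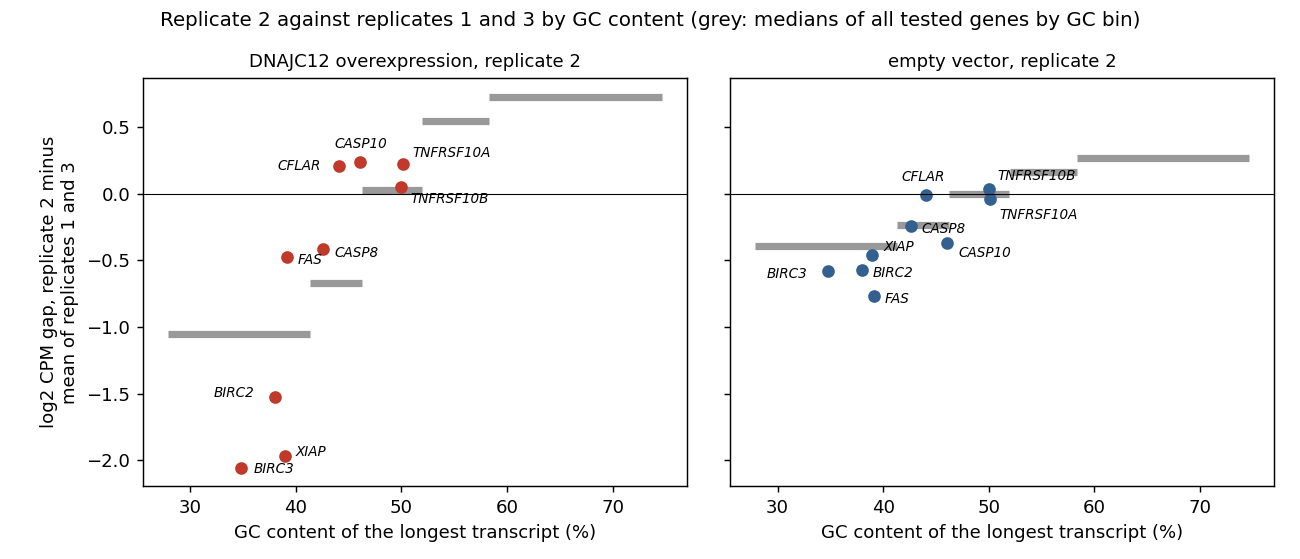
Log2 CPM of replicate 2 minus the mean of replicates 1 and 3, in the overexpression group (left) and the empty vector group (right), against the GC content of each gene's longest transcript in percent; points are the 9 genes and grey bars the medians of all tested genes in 5 GC bins. XIAP, BIRC2 and BIRC3 lie below the grey bar of their bin at left, and the other 6 genes above theirs.

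Across the 6 libraries, the protein-coding genes whose log2 CPM followed XIAP most closely were FUBP3, a single-stranded DNA-binding protein gene (Pearson r = 0.997), FAM172A (0.996) and YAP1, the transcriptional coactivator of the Hippo pathway (0.995). These values describe 6 libraries that share the trend above. Of 12478 genes compared, 42 had an r above 0.99. FUBP3, for example, was at 69.7, 29.8 and 59.8 CPM with DNAJC12 and at 37.6, 30.7 and 37.1 CPM with the empty vector, low in overexpression replicate 2 like XIAP.

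Ratios between related genes within a library do not depend on library size. BIRC3 was at 0.171, 0.0982 and 0.124 of the BIRC2 level per gene length with DNAJC12, and at 0.190, 0.207 and 0.229 with the empty vector. All 3 overexpression ratios were below all 3 empty vector ratios, and the mean log2 ratio differed by -0.70. TNFRSF10B was at 3.33, 2.94 and 3.28 times TNFRSF10A with DNAJC12, and at 2.51, 2.62 and 2.46 times with the empty vector, again without overlap. The mean log2 ratio of DR5 to DR4 transcripts was 1.67 ± 0.10 with DNAJC12 and 1.34 ± 0.05 with the empty vector (SD, n = 3 each), a difference of 0.33. These 2 receptors have transcripts of nearly equal GC content, so the GC correction could hardly move their difference, which stayed at 0.33.

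CFLAR was at 1.44, 2.22 and 1.44 times CASP8 with DNAJC12 and at 1.13, 1.42 and 1.29 times with the empty vector. These ratios use the deposited gene lengths, and whether CFLAR or CASP8 is the higher depends on the length used, as given below. The groups did not overlap, but the lowest overexpression ratios were close to the highest empty vector ratio. The log2 ratio differed by 0.38, and by 0.18 without overexpression replicate 2. CASP10 was at 0.369, 0.510 and 0.284 of CASP8 with DNAJC12 and at 0.493, 0.483 and 0.565 with the empty vector, and here overexpression replicate 2 lay among the empty vector libraries. For the BIRC3, TNFRSF10B and CFLAR ratios, the exact two-sided permutation test gave p = 0.1, the smallest this test can give with 3 against 3 libraries, so it cannot reach 0.05 here. For CASP10 to CASP8 that exact p was 0.3, with a difference of -0.45. Adjusted over the 4 ratios, the exact permutation p-values were 0.133 for the BIRC3, TNFRSF10B and CFLAR ratios and 0.3 for CASP10 to CASP8. How often ratios of other gene pairs fail to overlap was not computed. The lack of overlap therefore stands without a background share.

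**Figure D4:**
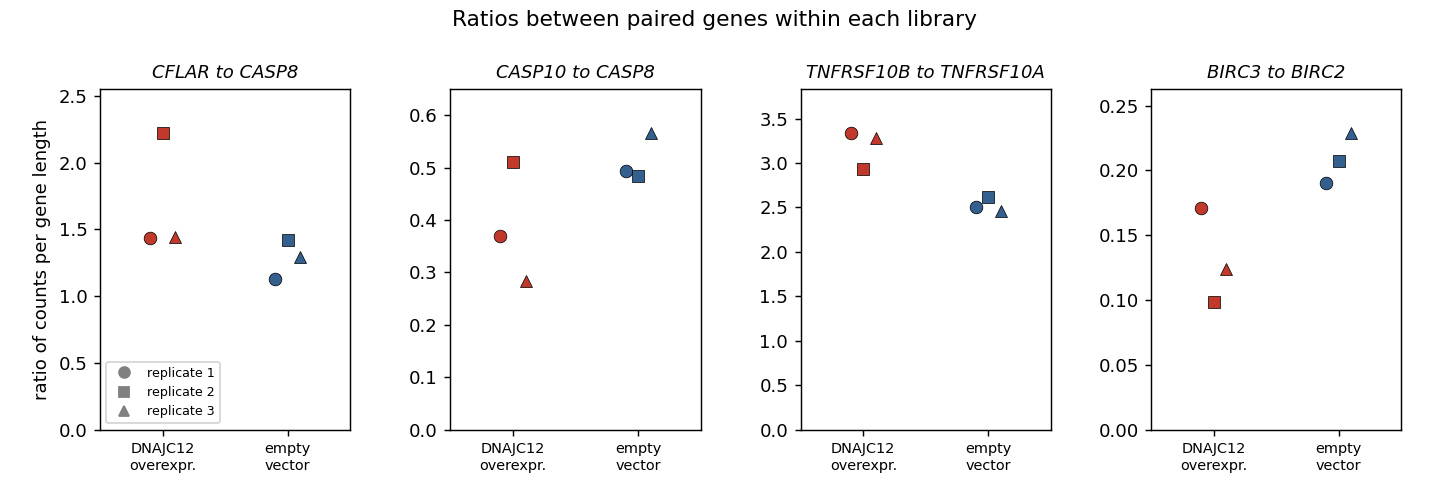
Ratio of counts per gene length between the members of 4 gene pairs in each library, DNAJC12 overexpression (red) left of empty vector (blue), with a marker shape per replicate number; the axes start at 0. The groups do not overlap for CFLAR to CASP8, TNFRSF10B to TNFRSF10A and BIRC3 to BIRC2, and overlap for CASP10 to CASP8. No share over other gene pairs was computed.

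The order of the genes by level was set on FPKM (reads per gene length and library depth, as deposited). TNFRSF10B led with 50.2 ± 1.96 FPKM with DNAJC12 and 46.1 ± 3.63 FPKM with the empty vector (SD, n = 3 each). TNFRSF10A followed with 15.8 ± 1.64 FPKM with DNAJC12 and 18.2 ± 1.63 FPKM with the empty vector. BIRC2 had 8.57 ± 4.83 FPKM with DNAJC12 and 7.82 ± 1.73 FPKM with the empty vector, and CFLAR 6.50 ± 0.610 FPKM with DNAJC12 and 5.33 ± 0.0341 FPKM with the empty vector. The caspases came next. CASP8 stood at 3.93 ± 0.611 FPKM with DNAJC12 and 4.20 ± 0.503 FPKM with the empty vector, and CASP10 at 1.48 ± 0.261 FPKM with DNAJC12 and 2.16 ± 0.297 FPKM with the empty vector. BIRC3 had 1.24 ± 0.974 FPKM with DNAJC12 and 1.63 ± 0.351 FPKM with the empty vector, and XIAP 1.82 ± 1.11 FPKM with DNAJC12 and 0.898 ± 0.158 FPKM with the empty vector. FAS had the lowest mean, at 0.450 ± 0.0823 FPKM with DNAJC12 and 0.663 ± 0.209 FPKM with the empty vector. Neighbours in this order kept it in all 6 libraries except BIRC2 above CFLAR and CASP10 above BIRC3, each in 5 libraries. BIRC3 was above XIAP in 3 libraries, all with the empty vector, and below it in the 3 overexpression libraries. The deposited length of CFLAR is 22529 bases and that of CASP8 7243, while their longest annotated transcripts have 14672 and 2930 bases. With those as lengths, an alternative chosen after seeing the data, CFLAR was above CASP8 in 1 library in place of 6. The mean of CASP8 over the 6 libraries was then also above that of BIRC2. XIAP was above FAS in 4 libraries in place of 6, with FAS higher in empty vector replicates 1 and 3. BIRC2 above CFLAR, CASP10 above BIRC3 and BIRC3 above XIAP held in 4 libraries each. The order of these genes therefore depends on the length used, while TNFRSF10B and TNFRSF10A led in all 6 libraries with either length.

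Among 65 other tested genes of the pathway, in 12 lists, 1 rose and none fell (edgeR, adjusted p under 0.05), beside 0.585% of all tested genes that rose and 0.661% that fell. It was RBCK1, which encodes HOIL-1, a subunit of the linear ubiquitin ligase that acts in the TNF receptor complex beside the cIAPs. RBCK1 was at 336, 539 and 430 CPM with DNAJC12 and at 120, 155 and 156 CPM with the empty vector, with no overlap. The fold change on the log2 scale was 1.60 ± 0.24 SE and its adjusted p 0.0143 by the edgeR test. It missed the threshold in the fits that left out overexpression replicate 3 (adjusted p = 0.0964, edgeR) or empty vector replicate 1 (0.126), 2 (0.0789) or 3 (0.0955), with log2 fold changes of 1.41 to 1.74 over the 6 fits without 1 library. The other subunits of that ligase, RNF31 and SHARPIN, had log2 fold changes of -0.27 and 0.07, and RNF31 passed without overexpression replicate 2 (edgeR adjusted p = 0.0217). Of the 65 genes 35 had a fold change above 0 and their median was 0.03, beside 0.05 over all tested genes. DESeq2 called 2 of the 65 and limma on log2(FPKM + 1) called 1, beside 3.89% and 1.41% of all genes. Without overexpression replicate 2, 21 of the 65 passed, beside 22.5% of all genes. After the GC correction 16 passed, beside 17.5% of all genes. These shares also stand beside each single gene named below as passing in those fits. Of the genes named below as passing without overexpression replicate 2, RELB passed in 2 of the 6 fits without 1 library. Among those 6 fits, the others, as well as DDIT3 and RNF31, passed only in the fit without overexpression replicate 2.

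None of 4 tested death ligands passed; TNFSF10, which encodes TRAIL, was at 62.7 ± 29.7 CPM with DNAJC12 and 50.3 ± 14.9 CPM with the empty vector (SD, n = 3 each). TNFSF12, the gene of the ligand TWEAK, had a log2 fold change of -0.0048. The FAS ligand gene FASLG had 0 counts in all 6 libraries and was not tested. None of 3 decoy or soluble receptors passed, nor did any of 3 other death domain receptors. The decoy receptor gene TNFRSF10D, next to the DR4 and DR5 genes, had a log2 fold change of -0.27, and its 3 overexpression libraries lay below the empty vector libraries. TNFRSF11B had 0.76 and passed without overexpression replicate 2 (edgeR adjusted p = 0.0196). The log2 fold change of the TNF receptor TNFRSF1A was -0.06 and that of TNFRSF21 0.28. Among 11 adaptors and kinases none passed, and the adaptor FADD had a log2 fold change of -0.24 and DAXX -0.22. Of the 11, 4 were above 0 and 7 below. MLKL had -0.75 with no overlap (adjusted p = 0.260, edgeR). MLKL passed after the GC correction (edgeR adjusted p = 0.0242) but not without overexpression replicate 2 (0.0877). PIDD1 had -0.45 with overlap (adjusted p = 0.525, edgeR). PIDD1 passed after the GC correction (edgeR adjusted p = 0.0349) and without overexpression replicate 2 (0.0146).

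None of 7 other caspases passed. The inflammatory caspase CASP4 had a log2 fold change of 0.54 and CASP6 one of -0.85, both with an unadjusted p under 0.05. CASP6 was at 13.8, 9.55 and 10.3 CPM with DNAJC12 and at 24.1, 17.0 and 19.5 CPM with the empty vector, with no overlap (adjusted p = 0.178, edgeR). Without overexpression replicate 2 both passed, CASP4 at an edgeR adjusted p of 0.0259 and CASP6 at 0.0373, and CASP6 also after the GC correction (0.0057). None of 5 genes of the mitochondrial link passed, with BAX at 0.05 and BAK1 at -0.04. Of the 5, 2 were above 0 and 3 below. BID had -0.62 with no overlap (adjusted p = 0.245, edgeR). BID passed after the GC correction (edgeR adjusted p = 0.0136) and without overexpression replicate 2 (0.0033). Of the other IAP genes, BIRC5, which encodes survivin, had -0.19 and BIRC6 0.91. Neither passed on all 6 libraries, and both did without overexpression replicate 2 (edgeR adjusted p = 0.0432 for BIRC5 and 0.0077 for BIRC6). Over the fits without 1 library, the log2 fold change ran from -0.51 to -0.0008 for BIRC5 and 0.45 to 1.25 for BIRC6. None of 4 IAP antagonists passed, with 2 above 0 and 2 below. HTRA2 had -0.04 and SEPT4, whose ARTS isoform binds XIAP, 0.61, and SEPT4 passed after the GC correction (edgeR adjusted p = 0.0102). DIABLO had -0.56 with no overlap (adjusted p = 0.402, edgeR). It passed neither after the GC correction (edgeR adjusted p = 0.142) nor without overexpression replicate 2 (0.127). XAF1, a XIAP-binding factor named after its values were seen, was at 2.20, 1.71 and 1.20 CPM with DNAJC12 and at 0.429, 0.278 and 0.799 CPM with the empty vector, a log2 fold change of 1.75 that did not pass (adjusted p = 0.115, edgeR). XAF1 passed after the GC correction (0.0339) and without overexpression replicate 2 (0.029).

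None of 8 caspase substrates and nucleases passed, with LMNA at 0.35 and GSDMD at 0.03, though LMNA did after the GC correction (edgeR adjusted p = 0.0103). Of the 8, 5 were above 0 and 3 below. PARP1 had -0.70 with no overlap (adjusted p = 0.116, edgeR). PARP1 passed after the GC correction (edgeR adjusted p = 0.0007) and without overexpression replicate 2 (0.0034). Of the 4 genes of the non-canonical NF-kB pathway, which the cIAPs restrain, none passed. RELB was at 85.4, 159 and 114 CPM with DNAJC12 and at 53.7, 79.8 and 62.8 CPM with the empty vector, without overlap, a log2 fold change of 0.87 (adjusted p = 0.178, edgeR), and NFKB2 had 0.25. After the GC correction both passed, RELB at an edgeR adjusted p of 0.00047 and NFKB2 at 0.0319, and RELB also without overexpression replicate 2 (0.034). Of the 4, 3 were above 0 and 1 below, MAP3K14 at -0.48 with no overlap (adjusted p = 0.399, edgeR). MAP3K14 passed after the GC correction (edgeR adjusted p = 0.0329) and without overexpression replicate 2 (0.0135). None of 6 upstream transcription factors passed in the edgeR test on all 6 libraries, while all 6 had a fold change above 0 and a median of 0.44. Of these 6, 4 passed after the GC correction, 4 without overexpression replicate 2 and 1, ATF4, by DESeq2 (adjusted p = 0.0361). Those fits called 17.5%, 22.5% and 3.89% of all genes. ATF4 had a log2 fold change of 0.74 (adjusted p = 0.0923, edgeR) and ATF3 one of 0.40 (0.385). After the GC correction the edgeR adjusted p was 0.0051 for ATF4 and 0.0104 for ATF3, and without overexpression replicate 2 it was 0.0044 for ATF4 and 0.0193 for ATF3.

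**Figure D5:**
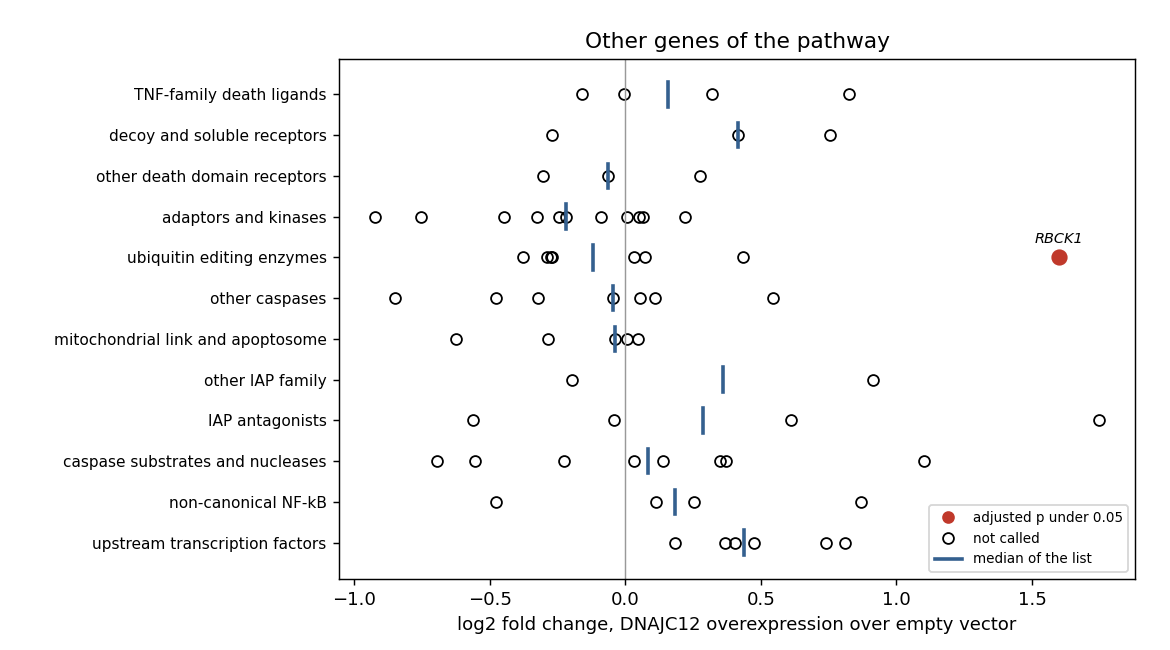
Log2 fold change, DNAJC12 overexpression over empty vector, of the 65 other tested pathway genes in 12 lists; circles are genes, filled red where the edgeR adjusted p was under 0.05, and blue bars are list medians. RBCK1 is the filled circle, at 1.60.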

How the data were processed

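Alignment used HISAT2 2.0.5 with hg19 named as the build, per the submitters' processing notes. Every one of the 58735 deposited gene entries matches GENCODE 29 on GRCh38 instead, and coordinates follow that build. Neither counting program nor strand setting is given in the sources used here, and overlapping genes are therefore uncertain. The authors deposited raw counts of reads per gene and FPKM per gene for each library, and each FPKM equals the count per gene length over 1 depth per library, 0.854 to 1.10 times its total count.

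Counts were tested with edgeR 4.0.16 in R 4.3.3 (quasi-likelihood, TMM, filterByExpr with minimum count 10 and minimum total 15, robust), with Benjamini-Hochberg adjustment over 14520 genes and a threshold of 0.05. CPM values use TMM library sizes, except the sums over markers, which use total counts, and log2 CPM a prior count of 2. Standard errors and 95% intervals come from the fitted F and its degrees of freedom. The GC correction took a loess trend of log2 CPM on the GC content of the longest GENCODE 29 transcript in each library (span 0.3) as an offset. DESeq2 1.42.0 and limma 3.58.1 were alternatives, with pseudocounts of 1 and 0.1 on FPKM, which understate changes of low genes. Pathway genes were named where called (up to 4 per list), otherwise the 2 of highest mean FPKM. RNF31, SHARPIN, DDIT3, XAF1, DIABLO, FASLG, TNFRSF10C, BID, PARP1, MLKL, PIDD1 and MAP3K14 were named after their values were seen. For the member with the smallest p, the 3 protein-coding genes with the highest Pearson correlation were named. The 9 genes and the lists were chosen with earlier results of these data known. The steps were tested on simulated data, where in the single draw made the share of false calls was above the threshold for edgeR, limma and DESeq2 and highest for DESeq2, whose stopping bound was widened after that draw. Intervals of counts cover counting error only.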

Additional observations from a re-analysis of the deposited data

How the results depend on the processing

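Fold changes and counts of calls were recomputed under 17 alternatives, the 4 ratios under 9 and the order of levels under 1, and the 9 genes kept their direction and their side of the threshold in 136 of 153 gene and alternative pairs. The log2 fold change of BIRC2 was below 0 with the replicate block (-0.0048), with the GC correction (-0.13), with both together (-0.16), by limma on log2(FPKM + 1) with and without a filter (-0.0045) and with a pseudocount of 0.1 (-0.024). Over the fits without 1 library it ran from -0.35 to 0.50 for BIRC2 (-0.041 without empty vector replicate 2), -0.18 to 0.040 for CASP8 (0.04015 and 0.008772 without overexpression replicate 2 and empty vector replicate 1) and -1.18 to 0.056 (0.05575, without overexpression replicate 2) for BIRC3. The number of the 9 genes called was 1 with the replicate block (XIAP), 2 without both libraries numbered 2 (XIAP and CASP10), 2 with the GC correction and the block together (XIAP and BIRC3) and 0 to 1 over the fits without 1 library (XIAP, without overexpression replicate 2). Over all genes, the calls numbered 565 (3.89%) by the DESeq2 Wald test, 688 (2.52%) with no filter and 1937 (13.3%) with the replicate block. They numbered 2754 (18.7%) without both libraries numbered 2, 2540 (17.5%) with the GC correction and 3007 (20.7%) with the correction and the block. By limma on FPKM with no filter they numbered 39 (0.143%). Over the fits without 1 library they ran from 25 (0.168%, without overexpression replicate 3 or empty vector replicate 1) to 3366 (22.5%, without overexpression replicate 2). Of the 65 other pathway genes, 2 were called by DESeq2, 3 with no filter, 12 with the block, 18 without both libraries numbered 2, 16 with the GC correction, 20 with the correction and the block, 0 by limma with no filter, and 0 to 21 over the fits without 1 library. The causes were not tested. Same-numbered libraries of the groups deviated together with correlations of 0.448, 0.585 and 0.0335. Overexpression replicates 1 and 2 each correlated best with the empty vector library of the same number. Overexpression replicate 3 correlated best with empty vector replicate 1 (0.224). The labels give only a number, so the libraries are not taken as pairs, and a batch shared by number was not tested. Differences of the 4 ratios moved by less than the spread between replicates under each of their alternatives. Of these, the replicate block could not move them, as it averages the same values. The deposited FPKM could do so only through the pseudocount. Without 1 library the differences were 0.18 to 0.49 for CFLAR to CASP8 and -0.66 to -0.24 for CASP10 to CASP8. They were 0.30 to 0.39 for TNFRSF10B to TNFRSF10A and -0.91 to -0.51 for BIRC3 to BIRC2. The order of levels per longest transcript was added after the data were seen.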
